A study of Mus musculus with 4 samples.

Results

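Astrocyte-marker-high spots were the spots of Nf1+/- mouse brain sections with the largest excess of transcripts of 8 astrocyte genes over what the depth of each spot predicts. They were chosen by counts of Aqp4, Gja1, Aldh1l1, Slc1a3, Gjb6, Fgfr3, Ntsr2 and Slc7a10: in each spot with at least 500 unique molecular identifiers (UMIs, each standing for 1 captured mRNA molecule), the score was the excess of their UMIs over the number expected at the spot's depth, in units of the square root of the latter. The 10% of spots with the highest score in each section were taken, which gave 154, 236, 229 and 143 spots in sections 1 to 4, or 762 of 7620 spots used, and the 6858 other spots of the same sections were the comparison group. Fresh frozen brains of mice heterozygous for Nf1, a model of neurofibromatosis type 1 maintained on a C57/BL6 background, were cut into 10-µm sections and 4 sections were profiled on Visium slides, on which a barcoded spot takes up the polyadenylated RNA of the tissue above it. The study set out to compare regions dense in oligodendrocyte precursor cells (OPCs) with the rest of the brain, and no wild-type section, treatment or other genotype belongs to the experiment. Whether 4 mice or fewer gave the 4 sections is not stated in the labels, nor are age and sex, so n counts sections and p-values measure the spread between these sections, which may be technical. A spot covers several cells or parts of cells, so the spots are small regions rich in astrocyte transcripts and not astrocytes.

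Astrocytes are the glia that clear glutamate and GABA from synapses, buffer potassium and water through endfeet on blood vessels and at the brain surface, and pass current and metabolites to each other through gap junctions. Some of the score genes belong to these functions. Aqp4 encodes the water channel of endfeet, Gja1 and Gjb6 encode the gap junction proteins connexin 43 and connexin 30, Slc1a3 encodes the glutamate transporter GLAST and Aldh1l1 encodes an enzyme of folate metabolism. Fgfr3 encodes a receptor of fibroblast growth factors, Ntsr2 a neurotensin receptor and Slc7a10 a transporter of small neutral amino acids. Astrocytes differ between brain regions, and those next to the pia, the ventricles, large vessels and white matter are known for high Gfap.

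The last spot taken and the first spot not taken lay close together, with scores of 2.5 and 2.49 in section 1, 2.26 and 2.25 in section 2, 2.29 and 2.29 in section 3, and 2.43 and 2.42 in section 4. The 8 genes summed to 1635, 1578, 1791 and 1464 CPM (counts per 1000000, that is UMIs of a gene per 1000000 UMIs of the summed group) in the astrocyte-marker-high spots of sections 1 to 4 and to 617, 658, 617 and 559 CPM in the other spots. These levels describe the choice and were not tested. The median astrocyte-marker-high spot held 20, 22, 14 and 15 UMIs of these genes in sections 1 to 4, so 1 spot alone measures them coarsely and all comparisons were made on sums over spots.

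The sections held 19261710 to 37002379 UMIs each, and 48 of 7668 deposited spots fell under 500 UMIs. The astrocyte-marker-high sums held 1546404 to 3659651 UMIs per section. The median UMI number per spot was lower in astrocyte-marker-high spots in all 4 sections, at 12913, 14531.5, 7791 and 9691 against 15153, 15402, 9034 and 12484.5 in the other spots. The median share of mitochondrial UMIs was 14.6%, 16.8%, 14.5% and 15.9% against 15.7%, 13.5%, 12.8% and 14.0%, higher in 3 of 4 sections. Pairs of sections shared 427 to 1989 spot barcodes, which name positions on the slide grid and not cells, and 2 to 18 of the astrocyte-marker-high barcodes. Section 4 stood apart for ependyma genes, which hardly rose in its astrocyte-marker-high spots, as described below.

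Each score marker was measured in spots chosen by the other 7 markers, which keeps its own counts out of the choice. All 8 markers were higher in the spots so chosen in 4 of 4 sections, by 1.60- to 2.40-fold (edgeR quasi-likelihood test, paired by section, adjusted p = 4.5e-06 or lower for each). Aqp4 was counted at 84.2, 92.1, 91.9 and 43.0 CPM in the chosen spots of sections 1 to 4 and at 35.5, 32.6, 34.1 and 29.9 in the other spots. Its 4 chosen values lay above all 4 others, with section 4 the lowest, and the log2 fold change was 1.26 ± 0.12 (SE). Gja1 rose about as much, from 90.5, 88.6, 87.0 and 80.0 to 228, 207, 227 and 156 CPM (log2 fold change 1.24 ± 0.07), and its partner connexin Gjb6 rose by 1.18 ± 0.08 on the log2 scale. The smallest changes were those of Aldh1l1, from 38.9, 43.1, 41.8 and 37.8 to 60.2, 69.5, 70.6 and 57.6 CPM (0.68 ± 0.08), and of Slc1a3 (0.79 ± 0.06). Fgfr3, Slc7a10 and Ntsr2 rose by 0.94 ± 0.07, 0.96 ± 0.09 and 0.88 ± 0.06. For none of the 8 markers did the chosen and other spots overlap between any of the sections. The share of all genes tested that kept the groups apart in these comparisons was not counted, so nothing is concluded from that separation. Among all genes tested, 9.90%, 8.22%, 11.2%, 8.92%, 11.2%, 10.6%, 11.3% and 11.2% were called higher in the comparisons that held out Aqp4, Gja1, Aldh1l1, Slc1a3, Gjb6, Fgfr3, Ntsr2 and Slc7a10, respectively.

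**Figure D1:**
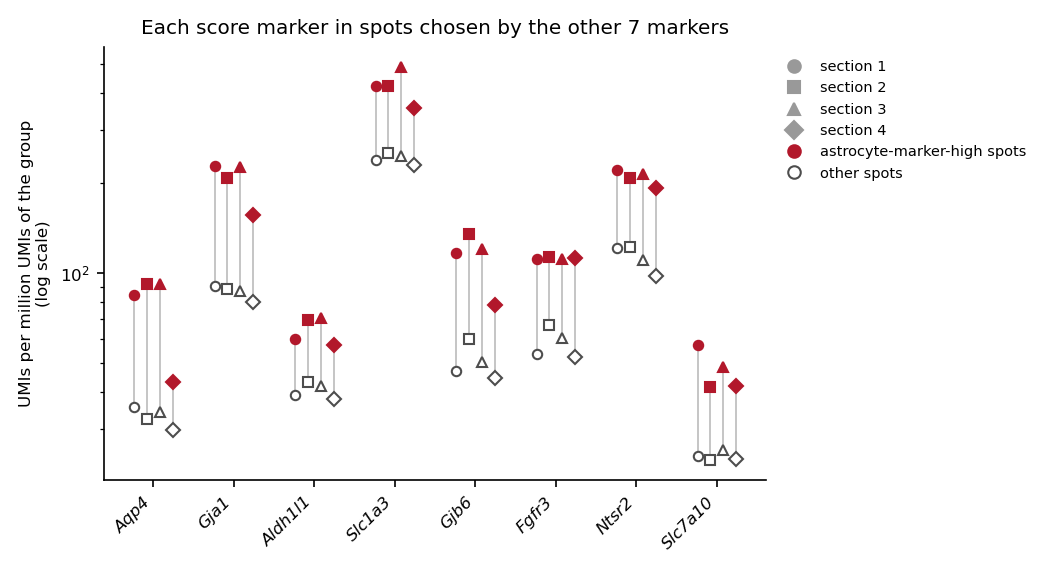
Level of each score marker, in CPM (log scale), in the spots chosen by the other 7 markers (filled) and in the other spots (open); each line joins both groups of 1 section, and marker shapes stand for the 4 sections. All 8 markers lie higher in the chosen spots in each section, with the smallest distance for Aqp4 in section 4 (43.0 against 29.9).

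Among 14390 genes outside the score, 1577 were called higher in astrocyte-marker-high spots (11.0% of genes tested) and 1122 were called lower (7.80%) at an adjusted p-value under 0.05. The median size of the called changes was 0.70 on the log2 scale for rises and 0.38 for falls, and 419 rises and 39 falls exceeded 2-fold. Of the 1577 genes, 839 had all 4 astrocyte-marker-high values above all 4 other values, as had 471 of the 1122 lower genes in the opposite order. How many genes that were not called also kept the groups apart was not counted. Statements below that the groups of a gene did not overlap therefore describe its values only. In such sums, more cells of a type and more RNA per cell cannot be told apart. The chosen spots also held more transcripts of border and vessel cells and fewer of some neuronal regions, with values given below. Each list was therefore also tested without border spots, which are the 160 astrocyte-marker-high spots (21.0%) and 470 other spots (6.85%) with at least 3 detected markers of choroid plexus, ependyma or leptomeningeal fibroblasts. Without them, 989 of 14043 genes tested were called higher and 709 lower, with a median log2 fold change of 0.0046 over all genes tested. A further comparison set the astrocyte-marker-high spots against matched spots, which were the unused spots of the same expression cluster nearest in depth. Up to 3 were sought for each, but clusters could run out. The 236 astrocyte-marker-high spots of section 2, for example, got 556 or 560 matched spots, depending on the clustering. Depth after matching was not checked. In the comparison with matched spots, 692 of 12687 genes tested were called higher and 358 lower, with a median of -0.0097 over all genes tested. The list counts in these comparisons are to be read beside these shares.

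Genes of transmitter uptake and its metabolism were higher in astrocyte-marker-high spots for 11 of 12 list members, with a median log2 fold change of 0.64 against 0.0021 over all genes tested. Slc6a11, the GABA transporter GAT-3 (ENSMUSG00000030307, chromosome 6, 114131241 to 114249886 in GRCm38.p6), was counted at 233, 76.0, 88.8 and 176 CPM in the astrocyte-marker-high spots of sections 1 to 4 and at 66.1, 46.8, 51.7 and 55.0 in the other spots. The groups did not overlap, the level was highest in sections 1 and 4, and the change was 2.42-fold (adjusted p = 2.4e-06, or 0.052 with edgeR's robust estimate). Glul, the glutamine synthetase that turns glutamate into glutamine, was at 771, 942, 762 and 697 CPM against 496, 492, 447 and 462, again without overlap (1.67-fold). The main glutamate transporter Slc1a2 (GLT-1) moved less, from 926, 1072, 968 and 934 to 1078, 1599, 1376 and 1051 CPM, with overlapping groups and a 1.3-fold change that passed the test (adjusted p = 0.00089). Slc25a18, a mitochondrial glutamate carrier, rose 2.01-fold. Aass, an enzyme of lysine breakdown, rose 2.21-fold from 312 UMIs in all, a call that was lost without section 1 (log2 fold change 0.97) and in spots thinned to 5000 UMIs (1.12). Without border spots 11 of 12 members were called higher and against matched spots 9 of 12, with medians of 0.64 and 0.43.

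Of 13 genes of potassium, pH and water balance and the endfoot, 12 were called higher (median log2 fold change 0.81). Mlc1 and Gpr37l1, membrane proteins of astrocytes, rose 1.92- and 1.98-fold, and the potassium channel Kcnj10 (Kir4.1) rose 1.49-fold, from 59.3, 66.0, 65.0 and 70.6 to 111, 86.1, 89.3 and 102 CPM. None of these 3 genes overlapped between groups. Gjb2, connexin 26, which leptomeningeal cells also express, rose by 2.11 on the log2 scale in all spots used and by 1.19 without border spots. In both other comparisons 11 of 13 members were called higher, with medians of 0.83 without border spots and 0.64 against matched spots.

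Lipid carriage and oxidation genes were higher for 13 of 14 members (median 0.72). Apoe, the apolipoprotein of brain lipoproteins, was at 3080, 3084, 2861 and 2458 CPM against 1850, 1699, 1575 and 1407, without overlap (log2 fold change 0.82 ± 0.05). Clu, another apolipoprotein, rose 1.58-fold. Plpp3, a lipid phosphatase, rose 1.97-fold. Cholesterol synthesis genes showed a different picture. Only Idi1 (log2 fold change 0.35) and Msmo1 (0.23) of 15 were called higher, none was called lower, and the median was 0.15. Both calls were lost under DESeq2, without the pairing by section and without section 1, 2 or 3. Of 26 alternatives, 15 lost the call of Idi1 and 9 that of Msmo1. The summed level of the 15 genes was higher in 3 of 4 sections, with log2 ratios of 0.14, 0.079, -0.0020 and 0.015.

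In glucose and glycogen metabolism, 8 of 12 tested genes were called higher and none lower (median 0.63). Aldoc, the aldolase of astrocytes, was at 1083, 1323, 1383 and 1068 CPM in astrocyte-marker-high spots and at 698, 804, 883 and 754 in the other spots, without overlap. The glycogen phosphorylase Pygb rose 1.61-fold, and the glucose transporter Slc2a1, which endothelial cells also express, rose 1.56-fold from overlapping groups. The metallothioneins Mt1, Mt2 and Mt3, which bind zinc and copper, were all called higher by 1.58-, 1.83- and 1.28-fold. Mt1 was at 3911, 3326, 3956 and 2942 CPM against 2535, 2098, 2313 and 2001, and neither it nor the other 2 genes overlapped between groups.

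Among 13 transcription factors and regulators of astrocytes, 9 were called higher (median 0.61). Sox9, which specifies glia, was at 22.4, 28.4, 27.8 and 26.5 CPM against 16.02, 12.8, 14.4 and 14.0, a 1.88-fold change. Zfp36l1, an RNA-binding protein, rose 2.30-fold and Id3, an inhibitor of bHLH factors, 1.84-fold, with Id3 highest in section 3 in both groups (223 and 99.5 CPM). Nfia rose 1.53-fold, a call lost against matched spots (log2 fold change 0.29). Against matched spots and without border spots, 7 of 13 were called higher.

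Of 17 tested genes for secreted and synapse-modifying proteins, 14 were called higher and none lower (median 0.62). Mfge8, a bridging protein of phagocytosis, was at 184, 322, 237 and 160 CPM against 108, 155, 120 and 94.9. Its highest values were in sections 2 and 3, whereas Sparc, a matricellular protein, was highest in sections 1 and 4, at 579 and 391 CPM against 198 and 133, and reached 170 and 149 against 117 and 106 in sections 2 and 3 (2.09-fold, a call lost with the robust estimate). Mertk, the receptor through which astrocytes take up synapses, rose 2.00-fold, Timp4 1.92-fold and Sparcl1 1.56-fold, without overlap between groups. The list of receptors and calcium signalling genes was mixed, with 7 of 13 called higher and 2 lower. Ednrb, the endothelin receptor B, was at 96.3, 56.6, 72.5 and 87.3 CPM against 33.1, 30.0, 34.4 and 35.3 (2.31-fold), and F3 (tissue factor) and S1pr1 rose 2.26- and 1.83-fold. The lower genes were Grm5, a glutamate receptor that neurons also express (log2 fold change -0.33 ± 0.07), and Gabbr2, a GABA-B receptor subunit of neurons and glia (-0.25 ± 0.08). Both calls were lost against matched spots, where the log2 fold changes were -0.17 and -0.18. Of 26 alternatives, 3 lost the call of Grm5 and 10 that of Gabbr2. All 20 other astrocyte-enriched genes of the lists were called higher (median 0.81), led by Lcat, which esterifies cholesterol (2.54-fold), Etnppl, an enzyme of phosphoethanolamine breakdown (2.32-fold), and the sulfurtransferase Tst (1.96-fold). Without border spots and against matched spots, 19 of these 20 were called.

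**Figure D2:**
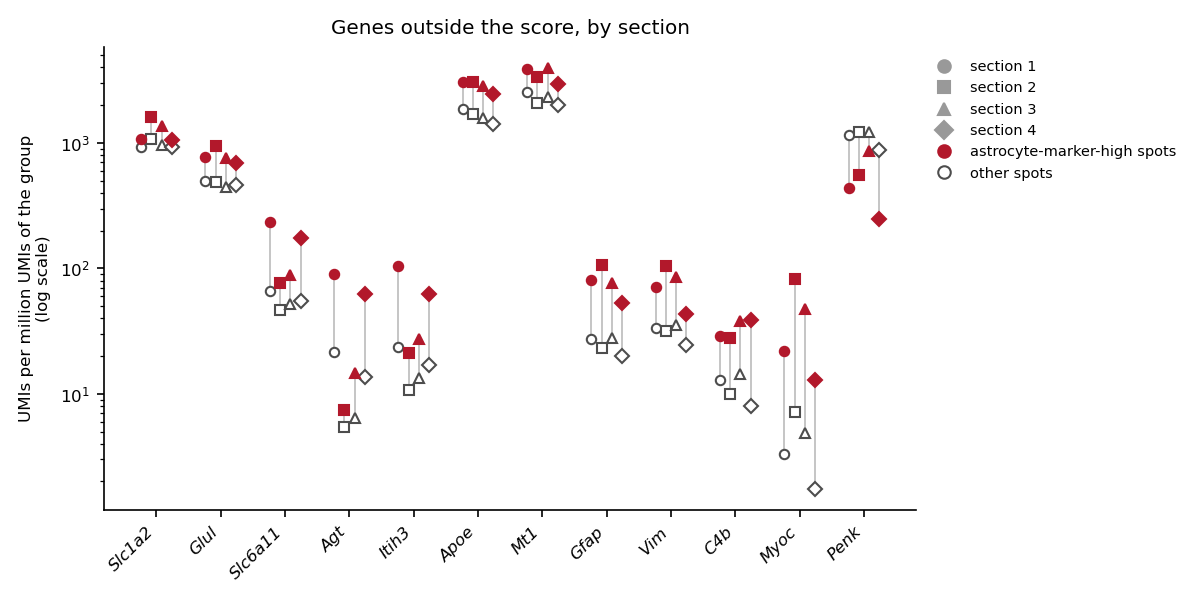
Levels of 12 genes outside the score, in CPM (log scale), in astrocyte-marker-high spots (filled) and other spots (open) of each section; each line joins both groups of 1 section. Gfap, Vim, C4b and Myoc show wide gaps in each section, Slc1a2 a small one in sections 1 and 4, Agt and Itih3 a gap that is widest in sections 1 and 4, and Penk lies lower in the astrocyte-marker-high spots of each section.

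Genes linked to reactive astrocytes were also higher, for 8 of 11 tested members and with a median log2 fold change of 1.02. Gfap, the intermediate filament of reactive and border astrocytes (ENSMUSG00000020932, chromosome 11, 102887336 to 102897200 in GRCm38.p6), was counted at 80.8, 106, 76.7 and 53.0 CPM in astrocyte-marker-high spots and at 27.2, 23.1, 27.9 and 20.04 in the other spots. The groups lay far apart in each section, and the change was 3.31-fold (log2 fold change 1.73 ± 0.12, adjusted p = 1.9e-08). Vim, a filament that vessel, meningeal and ependymal cells share, was at 71.5, 104, 85.6 and 43.3 against 33.1, 31.9, 35.3 and 24.6 CPM (2.49-fold). C4b, a complement component, was at 28.7, 27.9, 38.3 and 38.8 against 13.0, 9.99, 14.4 and 7.96 (2.93-fold). Cp, ceruloplasmin, rose 2.66-fold and Hspb1, a small heat shock protein of glia and vessels, 2.03-fold. Serpina3n, a marker of reactive states, changed least among the called members (1.27-fold). Its call was lost in 7 of 26 alternatives, that without section 1 among them. Stat3, a regulator of reactivity, did not pass the test (log2 fold change 0.11, adjusted p = 0.63). Aspg was called at 1.36 on the log2 scale from 88 UMIs in all, a call that 14 of the 22 alternatives that tested it did not make, DESeq2 among them. Lcn2, Cxcl10, Steap4, Timp1 and C3 were too low to be tested, with 34, 27, 50, 32 and 63 UMIs over all spots of the 4 sections. The rises were smaller without border spots: Gfap changed by 1.10, Vim by 0.94 and C4b by 1.20 on the log2 scale, all still called, and 6 of 10 tested members were called with a median of 0.50. Against matched spots the values were 1.11, 0.73 and 1.00. Cp and Hspb1 were not called once the top spots of border and mural lists were left out (0.25 and 0.34), a comparison described below. The summed level of the list was 1.92-, 2.46-, 1.99- and 1.64-fold higher in sections 1 to 4.

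Some genes that mark astrocytes of different brain regions split by section. The non-telencephalic genes Agt, Itih3 and Slc6a9 were all called higher (log2 fold changes 1.71, 1.60 and 0.55). Agt, angiotensinogen (ENSMUSG00000031980, chromosome 8, 124556587 to 124569706 in GRCm38.p6), was at 90.5 and 62.7 CPM in the astrocyte-marker-high spots of sections 1 and 4 against 21.3 and 13.5 in the other spots, and at 7.38 and 14.7 in sections 2 and 3, where other spots held 5.40 and 6.46. Sections 1 and 4 thus lay above the other 2 in both groups. Itih3, a hyaluronan-binding protein, had the same order, with 105 and 62.7 against 23.8 and 16.9 in sections 1 and 4, and 21.3 and 27.3 against 10.8 and 13.5 in sections 2 and 3. Against matched spots Agt and Itih3 were still called, each at 0.86 on the log2 scale, and Slc6a9 was not (0.25, adjusted p = 0.18). The summed list was higher by 1.77 and 1.68 on the log2 scale in sections 1 and 4 and by 0.46 and 0.70 in sections 2 and 3. Of 5 telencephalic genes, 1 was called lower, and Mfge8 and Emx2 were called higher, the latter by 0.70 ± 0.20. The call of Emx2 was lost in 12 of 26 alternatives, those without section 1, 2 or 3 among them. The summed telencephalic list was higher by 0.62 and 0.61 on the log2 scale in sections 2 and 3. In sections 1 and 4 it was higher by 0.20 and 0.27. In astrocyte-marker-high spots of sections 1 to 4 that sum was 277, 497, 420 and 290 CPM. Mfge8 alone supplied 184, 322, 237 and 160 of it. In the other spots the sum was 241, 323, 275 and 240 CPM, with 108, 155, 120 and 94.9 from Mfge8. The sum thus follows Mfge8 in large part, and the other members were not summed apart. Hopx, a gene of Bergmann glia and other astrocytes, rose 2.03-fold.

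Across deciles of the score, the astrocyte lists rose in steps and not only in the last decile. The potassium and endfoot list stood at 0.69 ± 0.020 (SD, n = 4 sections) of its decile mean in the lowest decile, at 1.02 ± 0.037 in the seventh and at 1.63 ± 0.11 in the highest. The transmitter list ran from 0.78 ± 0.024 to 1.37 ± 0.052. The leptomeningeal fibroblast list also rose over the lower deciles, from 0.54 in the lowest to 1.01 in the eighth. It reached 2.59 ± 0.79 in the highest, with the widest spread between sections of the lists plotted. The mature oligodendrocyte list was lowest in the first decile (0.67 ± 0.038) and ended at 1.08 ± 0.13.

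**Figure D3:**
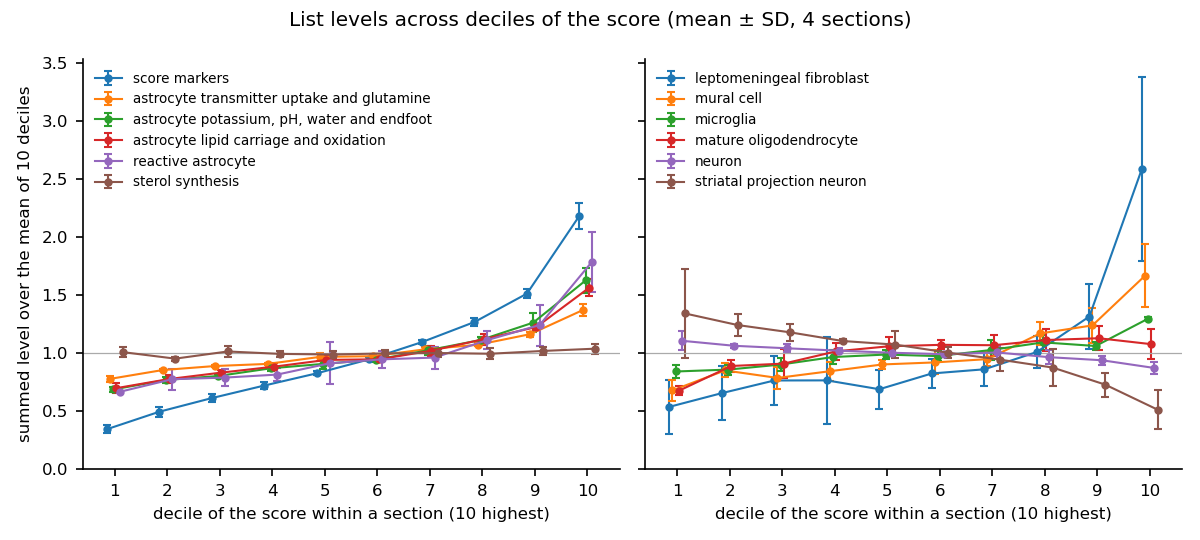
Summed level of each gene list in 10 deciles of the astrocyte score, divided by the mean of the 10 deciles of the section (points, mean of 4 sections; bars, SD). The score markers rise by construction; the other astrocyte lists rise step by step, sterol synthesis stays flat, the fibroblast list rises mainly in the last 2 deciles, and the striatal projection neuron list falls from 1.34 to 0.51.

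Of markers of other cell types, those of the brain borders rose most. All 8 leptomeningeal fibroblast genes were called higher, with a median log2 fold change of 1.93, and the list was 3.12-fold higher in the mean of the sections. Its summed level was 2.25-, 5.18-, 3.71- and 2.18-fold higher in sections 1 to 4. Slc6a13, a GABA transporter of the leptomeninges, was at 23.8, 20.8, 17.3 and 7.11 CPM against 5.88, 4.14, 3.88 and 1.92. Aldh1a2, the retinoic acid enzyme of the meninges, Col1a1 and Dcn rose by 2.27, 2.06 and 1.85 on the log2 scale. None of these 4 genes overlapped between groups. Without border spots 5 of 8 were still called higher (median 0.99), and once spots in the top 10% for fibroblast, ependyma, choroid plexus or mural genes were left out, an alternative chosen after seeing the data, none of 7 tested was called. Both filters leave out spots by the level of these same genes, so nothing is read from the calls that were lost. The second filter kept 371 astrocyte-marker-high spots, and 559 of 13561 genes tested were called higher and 420 lower. Gfap, C4b and Glul were still called with it, by 0.97, 1.13 and 0.66 on the log2 scale.

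All 7 tested ependyma genes were called higher (median 1.23). Ccdc153, a gene of motile cilia, was at 28.2, 18.9 and 34.1 CPM in the astrocyte-marker-high spots of sections 1 to 3 against 8.31, 3.84 and 5.47, but at 3.23 against 3.78 in section 4. The summed list was higher by 1.45, 1.74, 2.05 and 0.19 on the log2 scale in sections 1 to 4, and none of 7 genes was called without border spots (median 0.53), which were themselves defined in part by ependyma genes. Choroid plexus genes were mixed, with 2 of 10 called higher and 2 lower, and Ttr was at 7443, 15.0, 89.3 and 2124 CPM against 12690, 6.12, 71.4 and 3878. Mural cell genes were called higher for 6 of 8 members (median 0.79), led by Acta2, the smooth muscle actin of arteries (3.38-fold), Myl9 (2.61-fold) and Vtn, a pericyte gene (2.07-fold). The log2 fold change of Acta2 fell from 1.76 to 0.81 without border spots and 0.82 against matched spots, and it was not called without the top spots of the border and mural lists (0.29, adjusted p = 0.67), a filter that uses mural genes. Endothelial genes were called higher for 7 of 8 (median 0.58), with Cldn5, a tight junction protein, 1.50-fold and the efflux pump Abcb1a 1.70-fold higher. Microglial genes were called higher for 7 of 8 (median 0.47). C1qb was at 119, 133, 128 and 108 CPM against 86.5, 99.5, 82.9 and 73.2, C1qa rose 1.43-fold, and P2ry12, a marker of resting microglia, rose 1.42-fold. These 3 microglial genes did not overlap between groups. Against matched spots, 7 of 8 fibroblast and 4 of 7 ependyma genes were called higher. So were 5 of 8 mural, 7 of 8 endothelial and 6 of 8 microglial genes. The part of these cell types in the rises of the astrocyte lists was not tested beyond these comparisons.

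Genes of the oligodendrocyte lineage were called in part. Of 10 mature oligodendrocyte genes, 3 were called higher, among them Cnp and Cldn11 by 1.18- and 1.17-fold, and Mbp, the myelin basic protein gene, did not pass (log2 fold change 0.13, adjusted p = 0.20). The call of Cldn11 was lost in 13 of 26 alternatives, those without section 1, 3 or 4 among them. That of Cnp was lost in 5 of 26, that without section 3 among them. Without border spots 5 of 10 were called higher and none lower (median 0.19). Against matched spots 7 of 10 were called lower and none higher (median -0.19). The clusters for matching were made with genes of the oligodendrocyte and OPC lists among others. The matching thus evens out these lists in part, and nothing is read from the change of direction. The summed list was higher in sections 1, 3 and 4 and lower in section 2, with log2 ratios of 0.25, -0.15, 0.34 and 0.14. Of 8 OPC genes, 4 were called higher: Cspg4 and Pcdh15 (each 1.58-fold), Pdgfra, the growth factor receptor of OPCs (1.37-fold), and Lhfpl3 (1.31-fold). The calls of Lhfpl3 and Pcdh15 were lost in 17 and 13 of 26 alternatives. Pdgfra was at 36.5, 39.9, 32.0 and 40.1 CPM against 27.2, 26.7, 23.1 and 34.3. Without border spots 2 of 8 OPC genes were called higher (median 0.37). No OPC gene was called against matched spots (median 0.094), and none once the top spots of the border and mural lists were left out. In the latter comparison 559 of 13561 genes tested were called higher. At the shares of these 2 comparisons 8 genes would give hardly any calls, so nothing is concluded from their absence.

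Genes of the neuron list, which holds pan-neuronal genes and some of neuron subsets, were lower for 7 of 12 members and higher for none (median -0.22). Against matched spots 4 of 12 were called lower and 1 higher, with a median of -0.13. Snap25, a presynaptic protein, was at 1407, 1971, 1641 and 2368 CPM against 1900, 2467, 2519 and 2908, lower in 4 of 4 sections but with overlapping ranges (0.751-fold). Rbfox3 (NeuN) was 0.714-fold and Slc17a7, the vesicular glutamate transporter of cortex, 0.748-fold, whereas Gad1, the GABA-synthesizing enzyme, stood at 387, 333, 396 and 389 against 360, 365, 387 and 315 and did not pass. Regional genes moved more. All 8 striatal projection neuron genes were called lower (median -1.05). Penk, preproenkephalin (ENSMUSG00000045573, chromosome 4, 4133536 to 4138815 in GRCm38.p6), was at 441, 557, 865 and 250 CPM against 1165, 1221, 1230 and 876, a 0.442-fold change without overlap (adjusted p = 4.8e-06, or 0.081 with the robust estimate). Drd2, the D2 dopamine receptor, and Adora2a, an adenosine receptor, were 0.477- and 0.445-fold. In the other direction, 5 of 7 hypothalamic genes were called higher, among them Nnat (1.93-fold) and Baiap3, which was at 62.8 and 64.0 CPM against 27.1 and 16.2 in sections 1 and 4 but at 10.9 and 10.5 against 11.0 and 9.35 in sections 2 and 3. Zic1, a gene of septum and thalamus, was 2.42-fold higher. Matching on expression clusters reduced these regional differences: the log2 fold change of Zic1 was 0.24 instead of 1.27 (still called), the striatal median was -0.26 with 6 of 8 called lower, the hypothalamic median -0.022 with 1 called higher and 1 lower of 5, and Baiap3 changed by -0.022. In that comparison the 7 astrocyte function lists, from transmitter uptake to other astrocyte-enriched genes and without sterol synthesis and glucose, had medians of 0.36 to 0.64. The clusters were made without the astrocyte lists but with genes of the regional lists. The matching was thus built to even out the regional lists and not the astrocyte ones, and nothing is read from that contrast. The part of region in the astrocyte results was not tested.

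**Figure D4:**
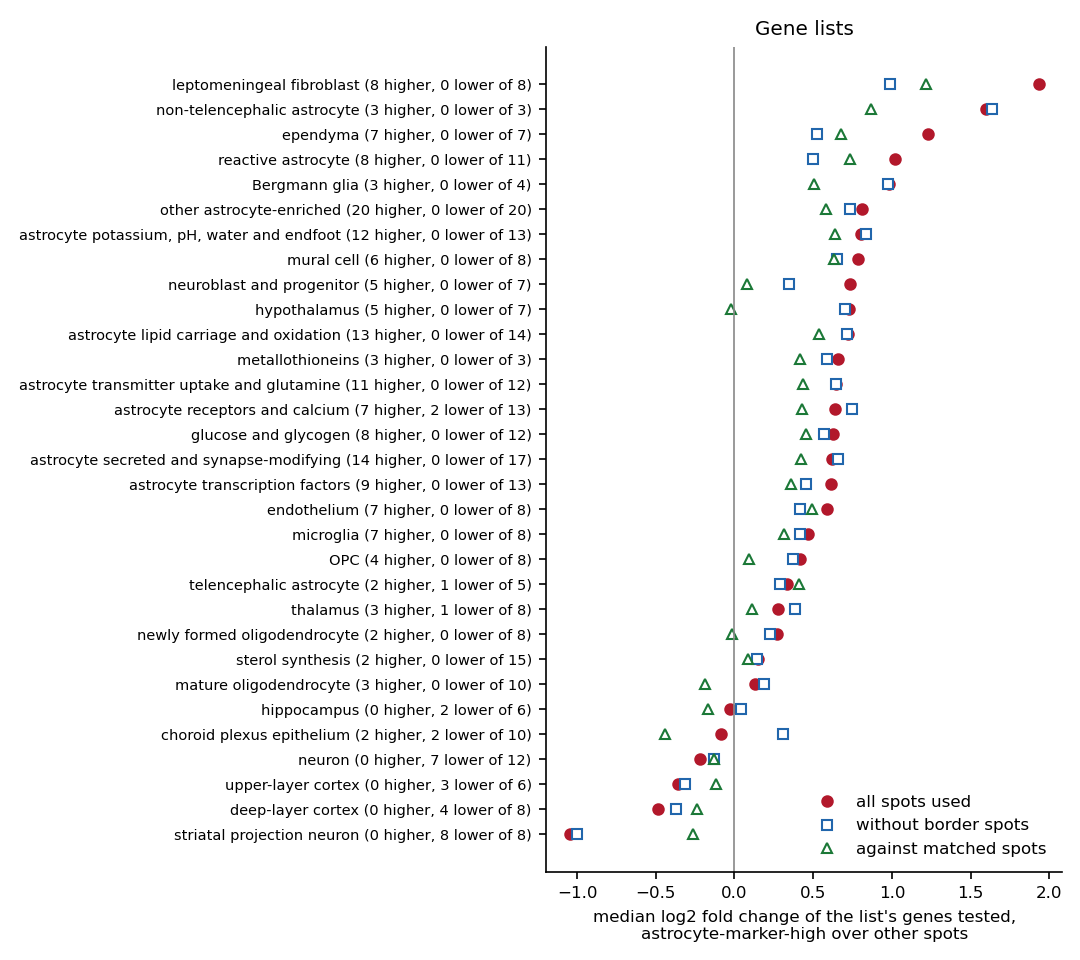
Median log2 fold change of the tested genes of each list, astrocyte-marker-high over other spots, with all spots used (filled circles), without border spots (squares) and against matched spots (triangles); the counts in the labels are those with all spots used. Astrocyte lists stay above 0 in the 3 comparisons, as do the fibroblast, ependyma, mural, endothelial and microglial lists, among others. The hypothalamus and OPC lists instead approach 0 and the mature oligodendrocyte list changes sign in the matched one. The clusters for matching were made without the astrocyte lists but with genes of the other lists, so this contrast follows in part from the matching.

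At the level of single spots, 45.7% ± 8.4 (SD, n = 4 sections) of astrocyte-marker-high spots were also in the top 10% of their section for the potassium and endfoot list, against 6.03% of the other spots. For the transmitter list the share was 40.2% ± 7.9 and for the lipid list 43.2% ± 10.7. Reactive genes put 27.2% ± 7.9 of the spots in their top 10%, with 39.0% in section 2 and 23.1% to 23.4% in the others. The shares were 23.2% ± 7.8 for fibroblast genes, 22.0% ± 4.7 for mural genes, 17.4% ± 1.8 for microglial genes and 13.0% ± 1.6 for OPC genes. Striatal genes shared fewest spots, 1.54% ± 1.25, with 0 of 154 in section 1 (exact 95% binomial interval up to 2.37%, which covers counting error only). By construction 10% of all spots of a section are in each top group, and no test was made of these shares.

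**Figure D5:**
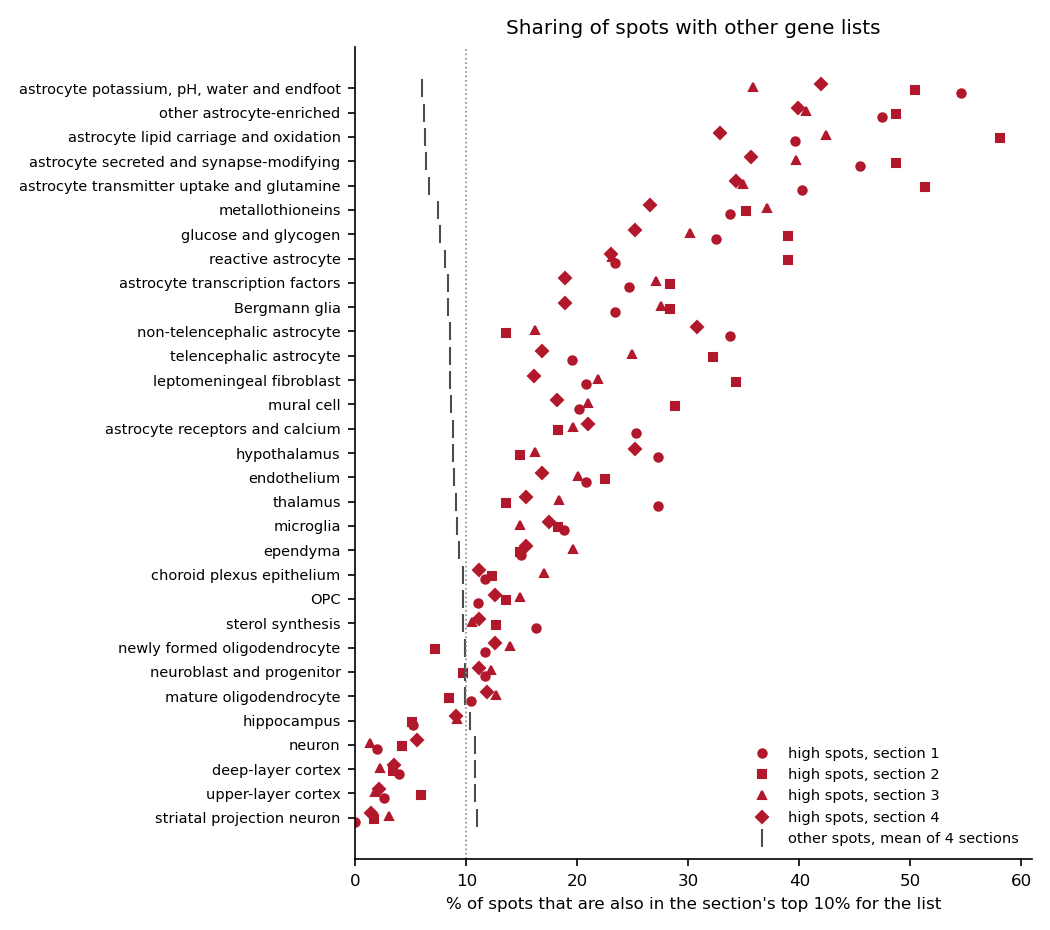
Percent of astrocyte-marker-high spots of each section (points) that were also in the top 10% of spots of that section for another gene list, with the mean of the other spots as a bar and a dotted line at 10%. Astrocyte lists lie at the upper end, cortical and striatal neuron lists at the lower end, and the sections differ most for the lipid and non-telencephalic lists (SD 10.7 and 10.2 percentage points).

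The largest rises by the rule for named genes were Myoc, Slc22a6, Aldh1a2, Fmod, Ccl19, Slc6a13, Cdhr4, 1700012B09Rik, Prg4 and Gjb2, by 2.11 to 3.26 on the log2 scale. Myoc, myocilin (ENSMUSG00000026697, chromosome 1, 162639150 to 162649694 in GRCm38.p6), rose most, from 3.31, 7.11, 4.87 and 1.75 to 21.9, 82.0, 47.8 and 12.9 CPM (9.61-fold, adjusted p = 1.7e-10). The log2 fold change was 3.26 ± 0.15 in all spots used, 2.26 without border spots and 2.44 against matched spots. Slc22a6, Aldh1a2, Fmod and Slc6a13 are known from the leptomeninges, and Cdhr4 and 1700012B09Rik are genes of ciliated cells. Cdhr4 was at 18.0, 6.56 and 11.6 against 3.46, 1.47 and 1.94 CPM in sections 1 to 3 and at 1.29 against 1.52 in section 4, from 2 and 27 UMIs. It met the rule's condition of 1 direction in all 4 sections only through the 0.5 UMIs added to each sum, and it was not called without border spots (log2 fold change 0.26). The largest falls were Cwh43, Gm39043, Mei4, Gm33651, Cd4, Mafa, Arhgef39, Olfr1393, C030013G03Rik and Gm50335, which fell by 1.24 to 2.04 on the log2 scale. Apart from Gm33651 and Cd4, each rested on 218 to 564 UMIs in all. In the astrocyte-marker-high spots each of these low-count genes had only 0 to 8 UMIs per section, for example 0, 2, 2 and 1 for Cwh43. The filter on low counts could be passed on the sums of the other spots alone, so nothing is concluded from these low-count falls. The calls of Arhgef39 and Olfr1393 were each lost in 16 of the 24 alternatives that tested them, that of Mei4 in 15 of 24, that of Mafa in 12 of 24 and that of Cwh43 in 8 of 24. Cd4, known from T helper cells, was at 7.30, 8.20, 7.88 and 3.88 CPM against 19.6, 21.4, 19.8 and 18.9, without overlap (0.356-fold), and it fell by 0.69 on the log2 scale against matched spots, where it was still called. Which cells carried Cd4 transcripts in these spots was not tested.

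Spots high for astrocyte markers were next compared with spots high for OPC markers, chosen in the same way by the 8 OPC genes, with the 101 spots that were in both groups left out. Of 11106 genes outside both scores, 551 were higher in astrocyte-marker-high spots (4.96% of genes tested) and 451 were lower (4.06%). Of the astrocyte lists, 10 of 13 potassium and endfoot genes, 11 of 14 lipid genes, 8 of 11 transmitter genes, 10 of 16 secreted and 16 of 20 other astrocyte genes were higher. Fewer were called among transcription factors (5 of 11), glucose and glycogen genes (6 of 12), receptors and calcium signalling genes (5 of 12, with 1 lower) and sterol synthesis genes (1 of 15). Glul was at 776, 932, 719 and 696 CPM against 524, 514, 474 and 462 in OPC-marker-high spots, without overlap. Gfap was 1.83-fold higher, with overlapping ranges. Ptgds, a prostaglandin synthase of leptomeninges and oligodendrocytes, was 2.73-fold higher. Fibroblast genes were higher for 5 of 5 tested members. Genes lower in astrocyte-marker-high spots included Gpr17, a receptor of differentiating OPCs (24.1, 15.4, 12.1 and 19.8 against 39.4, 31.8, 48.9 and 46.9 CPM), and 6 of 10 mature oligodendrocyte genes. All 8 striatal genes were lower as well, with Drd2 0.425-fold and Penk 0.417-fold.

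To ask whether the astrocyte-marker-high spots of myelinated tissue differed from the rest, they were divided by the share of UMIs from mature oligodendrocyte genes. The 208 spots above the 75th percentile of their section (48, 52, 76 and 32 in sections 1 to 4) were compared with the 554 below it. Of 9459 genes outside the astrocyte score and the myelin list, 260 were higher in the myelin-rich spots (2.75% of genes tested) and 65 were lower (0.687%). Few genes of the astrocyte lists were called, but so were few of all genes tested. At these shares, lists of this size would give hardly any calls, so nothing is concluded from the list counts. No gene was called among 11 of transmitter uptake, 14 of lipids, 10 of glucose and glycogen, 11 transcription factors, 14 secreted proteins and 6 reactive genes. Hepacam, a cell adhesion protein that localizes Mlc1, was higher in the myelin-rich spots by 0.49 ± 0.14, Daam2 by 0.92 ± 0.21 and Mt1 by 0.35 ± 0.09 on the log2 scale. The call of Hepacam was lost in 6 of 9 alternatives and that of Mt1 in 5 of 9. Daam2, which oligodendrocytes also express, was at 48.6, 44.2, 45.4 and 63.9 CPM against 23.0, 28.2, 28.2 and 22.3. Gabbr2 was lower (-0.76 ± 0.18), a call lost in 5 of 9 alternatives. Gfap was at 85.1, 71.9, 138 and 187 CPM in myelin-rich spots and at 79.1, 112, 55.6 and 32.8 in myelin-poor spots, so it was higher in sections 1, 3 and 4 and lower in section 2, and it did not pass the test (log2 fold change 0.60 ± 0.25, adjusted p = 0.27). The rises were led by other myelin genes such as Ugt8a, Mal and Trf (5.67-, 4.90- and 4.16-fold), and the falls included Camk2a (0.50-fold), Nrn1 (0.488-fold) and Slc17a7 (0.639-fold), genes of cortical and hippocampal neurons. What size of change 32 to 76 myelin-rich spots per section could show was not tested.

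The study names 5 genes on these sections. It reported Ttr, Enpp2, Rarres2 and Ecrg4 as higher in regions dense in OPCs, and Nf1 as too low in copy number to compare. The comparisons below are between other groups of spots and do not test that report. Nf1 itself was at 9.24, 7.38, 6.83 and 5.82 CPM in astrocyte-marker-high spots and at 7.70, 4.83, 6.02 and 6.15 in the other spots, from 624 UMIs in all, and did not pass the test (log2 fold change 0.31 ± 0.21, adjusted p = 0.34). Rarres2, which encodes chemerin, was higher without overlap, at 82.2, 62.3, 63.0 and 34.9 against 33.8, 21.8, 19.4 and 16.8 (2.68-fold). Without border spots it was still called (log2 fold change 0.78), and it was 2.70-fold higher in astrocyte-marker-high than in OPC-marker-high spots. Among astrocyte-marker-high spots it was lower in the myelin-rich ones (-0.76 ± 0.20), a call lost in 5 of 9 alternatives. Ttr, Enpp2 and Ecrg4, which choroid plexus expresses strongly, did not pass in the comparison with the other spots (-0.43, -0.16 and 0.23 on the log2 scale). These pooled values combine opposite directions, since each gene was higher in sections 2 and 3 and lower in sections 1 and 4. Ecrg4 was at 12.84 and 9.978 CPM against 3.359 and 3.481 in sections 2 and 3. In sections 1 and 4 it was at 72.98 and 34.27 CPM against 91.93 and 34.55, nearly level in section 4. Against matched spots, Ttr and Enpp2 were called lower (-0.91 and -0.41), and Ecrg4 did not pass (-0.26). Enpp2, the lysophospholipase autotaxin that oligodendrocytes also make, was 2.35-fold higher in myelin-rich than in myelin-poor astrocyte-marker-high spots.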

How the data were processed

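Visium libraries of 4 Nf1+/- brain sections were analysed. Reads had been processed by the authors in Space Ranger 1.3.1 (file headers) against mm10 (submitters' processing notes). The deposited tables are raw UMI counts for 32285 genes in each spot, not normalized. Spot positions were not used here. Section numbers are names only. Every pair of sections differed by more than sampling noise, with a chi-square of 14.5 to 55.4 per degree of freedom.

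UMIs were summed per section over the astrocyte-marker-high and the other spots and tested with edgeR 4.0.16 in R 4.3.3. The test was quasi-likelihood with TMM scaling and filterByExpr, blocked on section, with Benjamini-Hochberg adjusted p-values over 14398 genes. The 8 score genes were then left out of the calls. The pairing rests on both groups of a section being the same piece of tissue, and deviations from the group means correlated within a section at 0.34 to 0.52. A standard error is the log2 fold change over the square root of F. Levels are CPM, per 1000000 UMIs of the summed group. Group sums of 1546404 to 33342294 UMIs set the precision. In simulated counts for the comparison with the other spots (14398 genes, 200 changed by 1 on the log2 scale), the test called 164 changed genes, 8 others and 0 in the wrong direction. Intervals of spot shares are exact 95% binomial ones (Clopper-Pearson).

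For matching, spots were clustered per section (10 clusters, k-means on 20 components of 1000 variable genes, astrocyte lists left out, scikit-learn 1.9.0), and up to 3 comparison spots from the same cluster, the nearest in total UMIs, were matched to each astrocyte-marker-high spot, with each gene tested on clusters made without it. Of 315 list genes, 313 matched the files' symbols and 2 older symbols; coordinates are those of RefSeq on GRCm38.p6. Some list members are counted but not reported by name here. No cell types were assigned to spots and no doublet caller was run.

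The score genes, lists and tests were chosen with earlier results of these data known. Named are the score genes, the genes the study names, up to 5 called members of a list with the largest change, members that did not pass, and the 10 largest rises and falls with at least 200 UMIs and 1 direction in 4 sections; Glul, Slc1a2, Kcnj10, Apoe, Clu, Aldoc, Nfia, Sparcl1, Grm5, Gabbr2, Hspb1 and Serpina3n, and the genes named in the comparisons with OPC-marker-high spots and by myelin, were added after their values were seen. Alternatives were the top 5% or 20% of spots, other forms of the score, spots thinned to 5000 UMIs (which leaves out 101 astrocyte-marker-high and 748 other spots), border spots left out, all deposited spots, matched spots, DESeq2 1.42.0, scaling by total UMIs, no filter, edgeR's robust estimate, no block, the myelin division at the 50th percentile and each section left out.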

Additional observations from a re-analysis of the deposited data

Results flagged for a closer look

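For each named gene and each gene list, the section farthest from the other 3 was sought among the 4 sections, and 9 of 202 values had a section whose gap to its nearest neighbour exceeded Dixon's 95% critical share of the whole range. Chance alone gives such a gap in about 1 in 20 sets of 4. The log2 ratios below are of levels in astrocyte-marker-high over other spots within a section, with 0.5 UMIs added to each sum.

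Bmp4, a bone morphogenetic protein gene of the newly formed oligodendrocyte list, stood at a log2 ratio of 2.21 in section 2 and between 0.84 and 1.01 in the others. Cd4 stood at -2.17 in section 4 and between -1.38 and -1.29 in the others. The ciliated cell gene Cdhr4 stood at 0.06 in section 4 and between 2.17 and 2.59 in the others. In section 2, the tissue factor gene F3 stood at 0.88 against 1.28 to 1.34 elsewhere, and the glycogen phosphorylase gene Pygb at 0.59 against 0.71 to 0.73. Tst stood at 1.12 in section 1 and at 0.92 to 0.93 in the others. In the comparison with OPC-marker-high spots, Glul stood at 0.86 in section 2 and at 0.57 to 0.60 in the others. The share of astrocyte-marker-high spots in the top 10% for ependyma genes was 19.7% in section 3 and 14.8% to 15.4% in the others. For reactive astrocyte genes that share was 39.0% in section 2 and 23.1% to 23.4% in the others.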

How the results depend on the processing

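All 8 score markers measured in spots chosen by the other 7 stayed called under every alternative run for them. In the main comparison with the other spots, 1577 genes were called higher and 1122 lower, and each alternative gave its own set of calls. The counts were 803 and 507 in spots thinned to 5000 UMIs, 989 and 709 without border spots, and 692 and 358 against matched spots. They were 1031 and 761 with DESeq2. Without the top spots of the border and mural lists, an alternative chosen after seeing the data, they were 559 and 420. Of the 2699 main calls, 1137, 1616, 930, 1789 and 949 were shared in the same direction by these alternatives, in the order given. Against matched spots, 2 were called in opposite directions. Without the pairing by section (no replicate block) the counts were 699 and 197, with 78.0% of calls higher against 58.4% in the paired test, and without a filter on low counts 49.5% were higher. In the comparison with OPC-marker-high spots (551 and 451), the counts were 157 and 136 with DESeq2 and 77 and 28 without the block. In the division by myelin (260 and 65), they were 153 and 9 with DESeq2 and 150 and 1 without the block, and 116 genes were called lower without the filter. Leaving out each section in turn gave 1113 to 1469 higher and 592 to 1044 lower genes against the other spots, 287 to 517 and 250 to 366 against OPC-marker-high spots, and 159 to 242 and 17 to 72 by myelin. The lower genes were fewest without section 1 (592), those against OPC-marker-high spots without section 2, and those by myelin without section 3.

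Over 131 named genes, 2660 of 3035 values kept their direction and their side of the threshold, 332 lost the call, 19 gained one and 24 changed direction. Without the block, 35 of 111 genes named in the comparison with the other spots lost their call. Against matched spots the log2 fold change turned to -0.022 for Baiap3, -0.12 for Cldn11, -0.098 for Cnp, -0.16 for Mbp, -0.045 for Igfbpl1, -0.065 for Lhfpl3, -0.13 for Gad1, -0.28 for Prkcd and -0.26 for Ecrg4. Gad1 also turned with 6 score genes (-0.0087) and when thinned (-0.011). Ecrg4 turned with the top 5% of spots (-0.0086), the score without Gja1 (-0.30), thinning (-0.099), no block (-0.10) and without section 2 (-0.12 to 0.91 over the sections left out). Enpp2 turned to 0.12 with the share instead of the excess as score, 0.063 without border spots and 0.058 without top border and mural spots. Without top border and mural spots Nf1 was at -0.096 and Stat3 at -0.19, and Stat3 was at -0.0065 without border spots and -0.034 without section 2 (-0.034 to 0.23 over the sections left out). Ttr was at 0.097 without border spots. The causes were not tested.

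Of calls not described above, those of Baiap3, Cwh43, Dlx2, Lhfpl3, Slc6a9, Ramp3 and, by myelin, Hepacam and Slc17a7 were among those lost without section 1, those of Bmp4, Pdgfra and Mafa without section 2, those of Pcdh15 and, by myelin, Mt1, Gabbr2 and Rarres2 without section 3, and those of Arhgef39, Mei4, Olfr1393 and Gabbr2 without section 4. No position on the tissue was used, so neighbouring spots were treated like distant ones.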

Other observations

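2 further lists were measured in the astrocyte-marker-high spots. Of 7 tested genes of neuroblasts and progenitors, 5 were called higher than in the other spots, with a median log2 fold change of 0.73. Cd24a, which ependymal cells also express, rose by 1.19, Igfbpl1 by 0.99 and the interneuron lineage factor Dlx2 by 0.76 on the log2 scale. The summed level of the list was higher in 2 of 4 sections. Without border spots 3 of 7 were called higher, and against matched spots 1 was called higher and 1 lower. Of 8 genes of newly formed oligodendrocytes, Bmp4 (1.39 ± 0.35) and Tcf7l2 (1.14 ± 0.17), which thalamic neurons also express, were called higher, and none was called lower. Against matched spots 1 of 7 tested was called higher, Tcf7l2 (0.60), and 1 lower, Bcas1 (-0.26), with a list median of -0.015. Bmp4 was not tested there, and it was not called without border spots (0.90).

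Of the cortical lists, 3 of 6 upper-layer genes and 4 of 8 deep-layer genes were called lower in astrocyte-marker-high spots and none higher (medians -0.36 and -0.49). Foxp2, a deep-layer and striatal transcription factor, fell by 0.69 on the log2 scale. Against matched spots 1 gene of each list was called lower. In the hippocampus list, 2 of 6 tested genes were called lower and none higher, among them Neurod6, a transcription factor of pyramidal neurons (log2 fold change -0.52 ± 0.11). In the thalamus list, 3 of 8 were called higher, among them Prkcd (0.77 ± 0.11, but -0.28 against matched spots), and Ramp3 was called lower (-0.57 ± 0.18), a call lost in 18 of 26 alternatives. Against matched spots 1 of 7 thalamus genes was called higher and none lower. Of 4 tested Bergmann glia genes, 3 were called higher, with a median of 0.98.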
